A study of Arabidopsis thaliana with 12 samples.

Results

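Aliphatic glucosinolates are sulfur- and nitrogen-containing defence compounds that *Arabidopsis* makes from methionine. The transcripts described here are those of 10 genes of this pathway, out of the 26891 genes in the deposited table. These genes were set by gene identifier, with earlier results of these data known. They are 2 transcription factors (*MYB28* and *MYB29*), 3 genes of side-chain elongation (*BCAT4*, *MAM1* and *MAM3*), 3 cytochrome P450 genes of the core structure (*CYP79F1*, *CYP79F2* and *CYP83A1*) and 2 sulfotransferase genes (*SOT17* and *SOT18*). All 10 passed the filter on low values. The libraries came from whole seedlings of the Columbia ecotype, either WT or *cry1* mutant, which lacks the blue-light receptor cryptochrome 1. All seedlings grew at 22°C in continuous light and then spent 1 day in blue light. They were then held for 2 h in blue light either at 22°C or at 44°C, and the labels give an age of 8 days. Each of the 4 groups held 3 biological replicates, and total counts ranged from 10539271 to 21752824 over the 12 libraries.

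In this pathway methionine is first deaminated by the aminotransferase BCAT4 and then lengthened by methylthioalkylmalate synthases, of which MAM1 mainly yields short side chains and MAM3 can also yield long ones. CYP79F1 and CYP79F2 turn the lengthened methionine into an aldoxime, with CYP79F2 restricted to long chains, and CYP83A1 oxidises that aldoxime before sulfur is added. SOT17 and SOT18 add the sulfate group that completes the core glucosinolate. MYB28 and MYB29 are R2R3-type MYB activators of these genes, with MYB28 the main regulator in leaves. The indolic branch of the pathway starts from tryptophan and has its own MYB factors and CYP79 enzymes.

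The promoters of the members were also read. On heating 9 of the 10 transcripts were called lower in WT and all 10 in *cry1*, against 53.1% and 63.9% of all tested genes. In windows from 250 bases before to 50 bases after the annotated start (TAIR10.1, RefSeq), both strands were searched for AC elements (ACCTAAC or ACCAAAC or ACCTACC or ACCAACC), to which plant MYB factors are known to bind, for the G-box CACGTG, which bZIP and bHLH factors are known to bind, and for the heat shock element core, GAANNTTC, in which N is any base. AC elements were found in 5 of the 10 members against 16.72% of 23827 promoters of the same length. The G-box was found in 1 member, *CYP83A1*, against 8.43% of promoters, and the heat shock element core in 0 of 10 against 11.54%. No 2 of these matches overlapped. The 120 bases before the start are shown for the 3 members whose matches lie there and for *MAM3*, the member whose transcript did not fall in WT and whose window holds no match. The windows of *BCAT4*, *MAM1*, *MYB28* and *MYB29*, which were called lower on heating in WT, hold no match either. Capitals mark AC elements and, in *CYP83A1*, also the G-box nearer the start; the AC element of *CYP83A1* is on the opposite strand.
CYP79F2 (chr1:5604924-5605043, + strand): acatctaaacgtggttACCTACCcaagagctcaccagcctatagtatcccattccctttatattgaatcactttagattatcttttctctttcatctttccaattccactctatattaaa
CYP83A1 (chr4:7992430-7992549, - strand): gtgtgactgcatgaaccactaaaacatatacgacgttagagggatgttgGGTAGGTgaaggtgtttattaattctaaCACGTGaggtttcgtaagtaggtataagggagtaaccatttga
SOT17 (chr1:6398411-6398530, + strand): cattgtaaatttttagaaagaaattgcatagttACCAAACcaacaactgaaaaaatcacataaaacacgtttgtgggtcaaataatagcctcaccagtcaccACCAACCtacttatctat
MAM3 (chr5:7717998-7718117, + strand): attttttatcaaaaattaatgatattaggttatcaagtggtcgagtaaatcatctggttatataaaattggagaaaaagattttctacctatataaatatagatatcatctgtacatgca
The matches of the other 2 members lay after the start, 38 bases in *CYP79F1* and 36 bases in *SOT18*. A match is a stretch of letters, and no binding was measured here.

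Levels are given as CPM (the gene's count scaled to the library total), and differences as log2 fold changes from edgeR's quasi-likelihood test with Benjamini-Hochberg adjustment over the 25575 genes tested. A gene is called at an adjusted p under 0.05. *CRY1* stood at 213 ± 12.9 CPM in WT at 22°C (SD, n = 3) and 164 ± 11.7 at 44°C. The mutant libraries at 22°C held 0.199 ± 0.0807 CPM of it (n = 3) and those at 44°C no count, which allows up to 0.186 to 0.197 CPM (3 counts per library, counting error only). On this scale the median gene moved by -0.85 on heating in WT and by -1.28 in *cry1* (log2), by 0.25 in *cry1* against WT at 22°C and by -0.08 at 44°C, and under median-ratio scaling by -0.04, -0.09, 0.01 and 0.00. The summed level of 4 green shoot markers was 38193 to 38911 CPM in WT and 25413 to 28806 in *cry1* at 22°C, and 22119 to 24899 and 19916 to 22142 at 44°C. The 3 root markers summed to 29.9 to 38.6 and 16.7 to 29.0 CPM at 22°C and to 6.07 to 6.52 and 3.34 to 4.39 at 44°C, in the same order. The green shoot markers did not all move one way. Their log2 fold changes on heating ranged from -2.38 to 0.39 in WT and from -1.94 to 0.50 in *cry1*. Between *cry1* and WT at 44°C they ranged from -0.41 to 0.32. The 3 seed storage markers were higher in *cry1* at both temperatures, with sums of 57.6 to 244 CPM against 16.6 to 25.04 at 22°C and 35.5 to 77.1 against 2.51 to 10.2 at 44°C, and *SESA3* was at 0 in WT at 22°C. The part of these shifts in the results below was not tested, and in whole seedlings fewer cells of a type and less RNA per cell cannot be told apart.

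The 10 members together made up 0.0395 to 0.0438% of all counts in WT at 22°C and 0.00893 to 0.0113% in WT at 44°C. In *cry1* they made up 0.0289 to 0.0462% at 22°C and 0.00346 to 0.00469% at 44°C. Heat thus lowered the summed level from 417 ± 21.3 to 105 ± 13.4 CPM in WT (SD, n = 3) and from 354 ± 94.4 to 39.6 ± 6.46 CPM in *cry1*, with no overlap between temperatures. At 44°C the *cry1* libraries, at 34.6 to 46.9 CPM, all lay below the WT libraries, at 89.3 to 113 CPM, whereas at 22°C the genotypes overlapped.

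**Figure D1:**
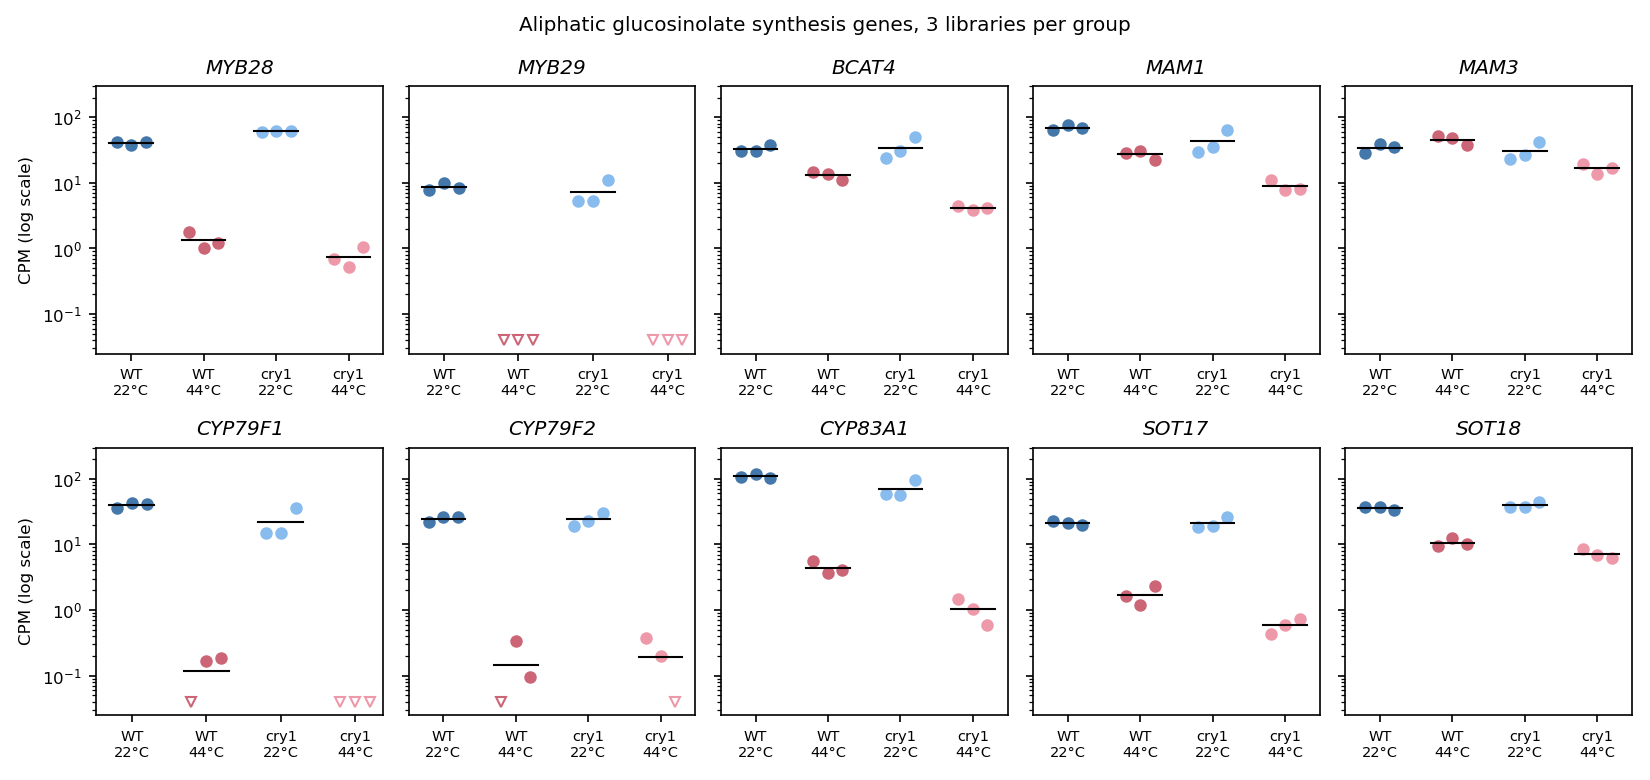
CPM of the 10 members in each library (points; log axis), grouped by genotype and temperature, with the mean of 3 libraries as a line and libraries without a count as open triangles at the foot. *MYB29* has no count in any of the 6 libraries at 44°C, *MAM3* alone overlaps between temperatures in WT, and the *cry1* libraries at 22°C are spread widely for most members but closely for *MYB28*.

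Per length of transcript, *CYP83A1* was the most abundant member in WT at 22°C, with 56.9 ± 3.86 FPKM (counts per kilobase of the longest annotated transcript, at the scale of CPM; SD, n = 3). *MAM1* followed with 36.2 ± 3.45 FPKM. *SOT18* (26.3 ± 1.52), *BCAT4* (23.0 ± 2.99), *MYB28* (21.3 ± 1.46) and *MAM3* (18.9 ± 3.04 FPKM) came next, and each of these overlapped with its neighbour. *CYP79F1* (14.4 ± 1.27) and *SOT17* (14.0 ± 0.968) overlapped, followed by *CYP79F2* at 12.2 ± 1.05 and *MYB29* at 5.04 ± 0.709 FPKM. At 44°C the order in WT was led by *MAM3* with 25.03 ± 3.93 FPKM, then *MAM1* with 14.2 ± 2.22 and *BCAT4* with 9.08 ± 1.29, while *CYP83A1* stood at 2.32 ± 0.50 FPKM. *MAM3* also led in *cry1* at 44°C, with 9.11 ± 1.64 FPKM against 5.23 ± 0.923 for *SOT18*, and these did not overlap. In *cry1* at 22°C *CYP83A1* again led with 37.0 ± 12.2 FPKM, but every member overlapped with the next in the order.

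The first question was how the pathway responded to heat in WT. Of the 10 members 9 were called lower at 44°C and 0 higher, against 53.1% of all tested genes lower and 13.3% higher. With so many genes lower on library totals, the count alone says little there about the members. Their size of change stood further out: the median log2 fold change of the members was -4.12, against -0.85 for the median gene. Members such as *MYB29* passed the filter through their level at 22°C alone. With the filter applied in each group, which leaves out *MYB29* and *CYP79F1*, the 2 medians were -2.69 and -0.86. Under median-ratio scaling 7 members were called lower and 1, *MAM3*, higher, against 31% and 29.3% of all tested genes. The changes ranged from the regulators and the P450 genes, reduced to a few percent or less of their level at 22°C, to *MAM3*, which was not called.

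The regulators were nearly silent after 2 h at 44°C. *MYB28* (AT5G61420, chromosome 5, 24689069 to 24691187) stood at 42.0, 37.2 and 42.0 CPM in the WT libraries at 22°C and at 1.80, 1.00 and 1.22 at 44°C. The groups were far apart, and the log2 fold change was -4.92 ± 0.16 (SE, n = 3; adjusted p = 1.5e-20 in edgeR), a 30.2-fold lower level. *MYB29* (AT5G07690, chromosome 5, 2446669 to 2448584), which acts beside *MYB28* and is known for its part in the response to jasmonate, stood at 7.66, 10.07 and 8.46 CPM at 22°C. No count of it was found in any WT library at 44°C, so its level was at least 32.1-fold lower (against 3 counts per library). In *cry1* the fall was alike in kind. *MYB28* went from 59.5, 62.3 and 61.3 CPM to 0.681, 0.524 and 1.05, a log2 fold change of -6.33 ± 0.16 (adjusted p = 4.2e-23 in edgeR). *MYB29* went from 5.29, 5.37 and 10.9 CPM to no count in any library, at least 37.2-fold lower.

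The P450 genes of the core structure were also far lower at 44°C. *CYP83A1* (AT4G13770, chromosome 4, 7990429 to 7992429) had 106, 117 and 103 CPM in WT at 22°C and 5.50, 3.68 and 4.11 CPM at 44°C, and its log2 fold change was -4.62 ± 0.29 (SE; adjusted p = 2.2e-07 in edgeR). In *cry1* it went from 58.8, 55.8 and 97.5 CPM to 1.49, 1.05 and 0.591 CPM, a log2 fold change of -6.06 ± 0.34 (adjusted p = 7.4e-08 in edgeR). It is the member whose promoter above holds both an AC element and a G-box. *CYP79F1* (AT1G16410, chromosome 1, 5608682 to 5612064) had 35.7, 42.2 and 41.0 CPM in WT at 22°C, whereas the 3 heated WT libraries held 0, 2 and 2 counts. The ratio of the counts, each summed over 3 libraries and scaled to their totals, was 330 (95% interval 129 to 1213, counting error only). In heated *cry1* no count of *CYP79F1* was found, which is at least 114-fold below the 22°C mean of 21.9 ± 12.4 CPM. Its tandem neighbour *CYP79F2* (AT1G16400, chromosome 1, 5605044 to 5607498) had 22.2, 25.8 and 25.9 CPM in WT at 22°C and 0, 4 and 1 counts at 44°C, a ratio of 164 (70.1 to 506). In *cry1* it had 19.3, 22.6 and 30.3 CPM at 22°C and 6, 3 and 0 counts at 44°C, a ratio of 124 (64.9 to 271). All these 22°C and 44°C groups were wide apart. The coding sequences of *CYP79F1* and *CYP79F2* are 91.9% identical, so that the split of reads between them is less certain than for the other members; they share 2.0 and 2.74% of their 50-base windows.

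The sulfotransferases fell by unequal amounts. *SOT17* (AT1G18590, chromosome 1, 6398531 to 6400029) had 22.3, 21.0 and 19.4 CPM in WT at 22°C and 1.61, 1.17 and 2.34 at 44°C, a log2 fold change of -3.62 ± 0.21 (adjusted p = 2.9e-15 in edgeR). *SOT18* (AT1G74090, chromosome 1, 27862814 to 27864193) had 37.4, 37.5 and 33.8 CPM at 22°C and 9.30, 12.7 and 10.003 at 44°C, a log2 fold change of -1.76 ± 0.13 (adjusted p = 9e-13 in edgeR). Both were lower in every heated library, and *SOT18* kept the larger share of its transcript. In *cry1* the log2 fold changes were -5.17 ± 0.23 for *SOT17* and -2.44 ± 0.13 for *SOT18* (adjusted p = 6.7e-18 and 3.7e-16 in edgeR). The level of *SOT18* over *SOT17* in a library, from counts, was 1.73 ± 0.056 in WT and 1.87 ± 0.139 in *cry1* at 22°C (SD, n = 3). It was 4.28 to 10.9 in WT and 8.45 to 19.9 in *cry1* at 44°C, above every library at 22°C. *SOT18* lies within reach of an unnamed gene on the same strand (AT1G74088), which stood at no more than 2.50 CPM on average in any group.

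Among the members, the 3 genes of side-chain elongation fell least or not at all in WT. In *cry1*, however, *BCAT4* fell more than *SOT18*. Isomerase genes of this stage outside the members ranged in log2 fold change from -3.33 to 0.26 in WT under median-ratio scaling. On that scaling *BCAT4*, *MAM1* and *MAM3* stood at -0.52, -0.53 and 1.21. The values that follow are on library totals unless another scaling is named. *BCAT4* (AT3G19710, chromosome 3, 6846969 to 6849582) had 30.7, 31.0 and 38.3 CPM in WT at 22°C and 14.8, 13.6 and 11.1 at 44°C, a log2 fold change of -1.34 ± 0.26 (adjusted p = 0.0011 in edgeR). *MAM1* (AT5G23010, chromosome 5, 7703041 to 7706973) had 63.3, 76.5 and 68.8 CPM at 22°C and 28.6, 30.9 and 22.6 at 44°C, a log2 fold change of -1.34 ± 0.29 (adjusted p = 0.0027 in edgeR). Neither group of libraries overlapped, but both changes lay only 0.48 and 0.49 below that of the median gene. Under TMM and median-ratio scaling neither was called, with adjusted p of 0.080 and 0.094 for *BCAT4* and 0.12 and 0.14 for *MAM1*. *MAM3* (AT5G23020, chromosome 5, 7718118 to 7721866) had 28.6, 39.7 and 35.4 CPM at 22°C and 51.0, 48.7 and 37.6 at 44°C. These groups overlapped, and the log2 fold change of 0.40 ± 0.25 (95% interval -0.16 to 0.97) was not called (adjusted p = 0.18 in edgeR). Relative to the median gene it was 1.26 higher, and under TMM and median-ratio scaling *MAM3* was called higher, at 1.19 and 1.21 (adjusted p = 0.0015 and 0.0013). Without *cry1* replicate 3 at 22°C, which enters only the estimate of the spread, its adjusted p was 0.021. The opposite strand of *BCAT4* holds part of *IKU2*, over 18.4% of its 50-base windows, but *IKU2* stood at no more than 0.131 CPM on average in any group.

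In *cry1* all 10 members were called lower at 44°C and 0 higher, against 63.9% of all tested genes lower and 9.84% higher. Their median log2 fold change was -5.62, or -5.20 with the members near 0 set at their bound or counted ratio, against -1.28 for the median gene. With the filter applied in each group it was -4.11, against -1.245 for the median gene. Under median-ratio scaling 9 members were called lower and 0 higher, against 31.9% and 30% of all tested genes. *BCAT4* went from 23.6, 30.6 and 49.5 CPM to 4.46, 3.86 and 4.14, a log2 fold change of -3.05 ± 0.29 (adjusted p = 3.4e-06 in edgeR). *MAM1* went from 29.9, 35.6 and 64.2 CPM to 11.2, 7.79 and 8.14, at -2.25 ± 0.31 (adjusted p = 0.00014 in edgeR). *MAM3* went from 23.1, 26.8 and 42.3 CPM to 19.7, 13.7 and 16.6, at -0.88 ± 0.25 (adjusted p = 0.011 in edgeR). The heated libraries lay below the unheated ones for each of these genes, that of *MAM3* by little. The direction for *MAM3* depends on the scale: its change was 0.40 above that of the median gene, and TMM and median-ratio scaling gave 0.29 and 0.32 (neither called). The ratio of *MAM3* to *MAM1*, which needs no scaling between libraries, was 0.495 ± 0.0371 in WT at 22°C and 1.67 ± 0.107 at 44°C (SD, n = 3). In *cry1* it was 0.728 ± 0.0608 at 22°C and 1.85 ± 0.164 at 44°C. Each heated library thus held more *MAM3* than *MAM1* counts and each unheated library fewer. The coding sequences of this pair are 84.2% identical, and they share no 50-base window.

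**Figure D2:**
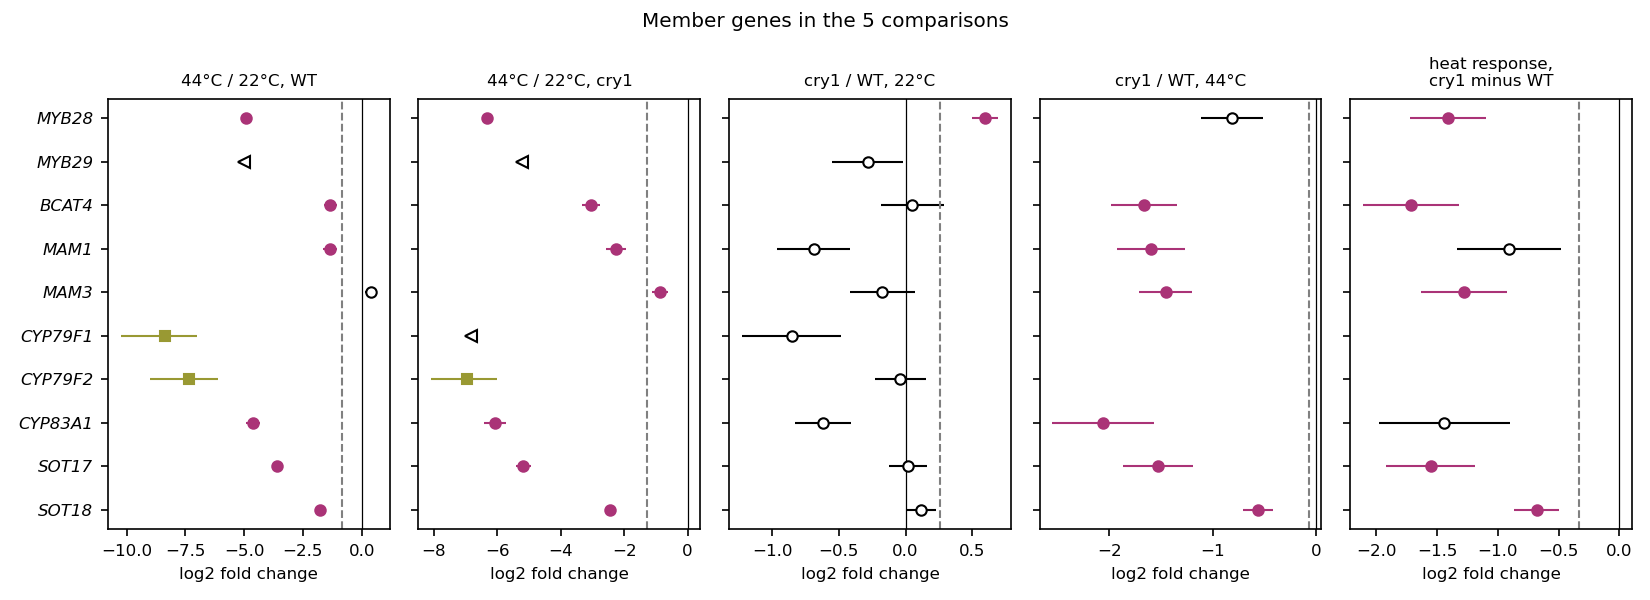
Log2 fold change of each member with its standard error in the 5 comparisons (each panel has its own axis; solid line 0, dashed line the median gene). Filled circles are called at an adjusted p under 0.05 on library totals and open circles are not; squares are ratios of summed counts with 95% counting intervals and triangles are the nearest bound for genes without counts at 44°C; members near 0 at 44°C are left out of the last 2 panels. All values but that of *MAM3* in WT lie below 0 on heating, and in *cry1* *MAM3* moves above 0 under TMM and median-ratio scaling.

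The second question was whether loss of CRY1 altered the pathway without heat. At 22°C 1 member was called higher in *cry1*, against 25.7% of all tested genes, and 0 were called lower, against 6.31%. The higher member was *MYB28*, with 59.5 to 62.3 CPM in *cry1* and 37.2 to 42.0 in WT. Its groups did not overlap (38.3% of tested genes were higher without overlap), and its log2 fold change was 0.60 ± 0.099 (adjusted p = 5.4e-05 in edgeR), a 1.51-fold higher level. The value was 0.35 under median-ratio scaling (adjusted p = 0.015), and with limma on log2(FPKM + 0.1) the call was lost (adjusted p = 0.052). The genes that MYB28 is known to activate did not show this difference. *CYP83A1* was lower in all 3 *cry1* libraries, at 55.8 to 97.5 CPM against 103 to 117, with a log2 fold change of -0.62 ± 0.21 and an adjusted p of 0.050 in edgeR that did not pass; 8.72% of tested genes were lower without overlap. Under TMM and median-ratio scaling it was called (-0.85 and -0.87, adjusted p = 0.016 and 0.015), as was *MAM1* (-0.92 and -0.94, adjusted p = 0.047 and 0.043).

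The *cry1* libraries at 22°C were not alike. In replicate 3, 9 of the 10 members had their highest value of the group, *MYB28* being the other. Its value was at least 1.5-fold above the mean of the other 2 libraries for 6 of 10 members, against 1.5% of 15660 genes with a mean of 5 CPM or more in that group. The median of this ratio over the members was 1.70, against 1.01 over all those genes. The ratio was highest for *CYP79F1*, at 2.46, then *MYB29* (2.05), *MAM1* (1.96), *BCAT4* (1.82), *CYP83A1* (1.70) and *MAM3* (1.69). It was 1.45 for *CYP79F2*, 1.36 for *SOT17*, 1.20 for *SOT18* and 1.01 for *MYB28*. The median ratio was 1.21 over the other genes of the aliphatic branch and 1.12 over those of the indolic branch. The root markers were low in the same library, with a median ratio of 0.694 (0.525 to 0.787 over 3 genes), and high in replicate 1 (1.55), and the green shoot markers were at 1.03 in replicate 3. Their part in the result was not tested. No other library of the series had a member 1.5-fold above the rest of its group, among members with 5 CPM or more there.

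Since the test of *cry1* at 22°C rests on this library, the values without it are given beside those with it. The library was singled out by the values of these same members, so the adjusted p without it are no independent test. Leaving it out also narrowed the estimated spread of members. *BCAT4* on heating in WT, a comparison without this library, then had an adjusted p of 6.7e-11 in edgeR at the same fold change. Without replicate 3, 5 members were called lower in *cry1*, against 5.46% of all tested genes in that fit, and *MYB28* remained called higher, against 19.5%. *CYP79F1* then stood at a log2 difference of -1.43 (adjusted p = 2.1e-08 in edgeR) instead of -0.86 (adjusted p = 0.14), its remaining libraries standing at 14.7 and 14.8 CPM against 35.7 to 42.2 in WT. *MAM1* had -1.09 (adjusted p = 4.6e-06) instead of -0.69 (adjusted p = 0.089), and *CYP83A1* had -0.92 (adjusted p = 5.9e-07). *MYB29* had -0.71 (adjusted p = 0.032) instead of -0.29, and *MAM3* had -0.48 (adjusted p = 0.042) instead of -0.18. *BCAT4*, *CYP79F2*, *SOT17* and *SOT18* were not called with or without it; with all libraries their 95% intervals for log2 *cry1* over WT were -0.49 to 0.59, -0.48 to 0.41, -0.31 to 0.35 and -0.14 to 0.37. Within *cry1* at 22°C the paralogs also differed in their ratio: *CYP79F2* over *CYP79F1* was 1.31, 1.52 and 0.834 in replicates 1 to 3, against 0.622 ± 0.010 in WT (SD, n = 3), so that each *cry1* library lay above each WT library.

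**Figure D3:**
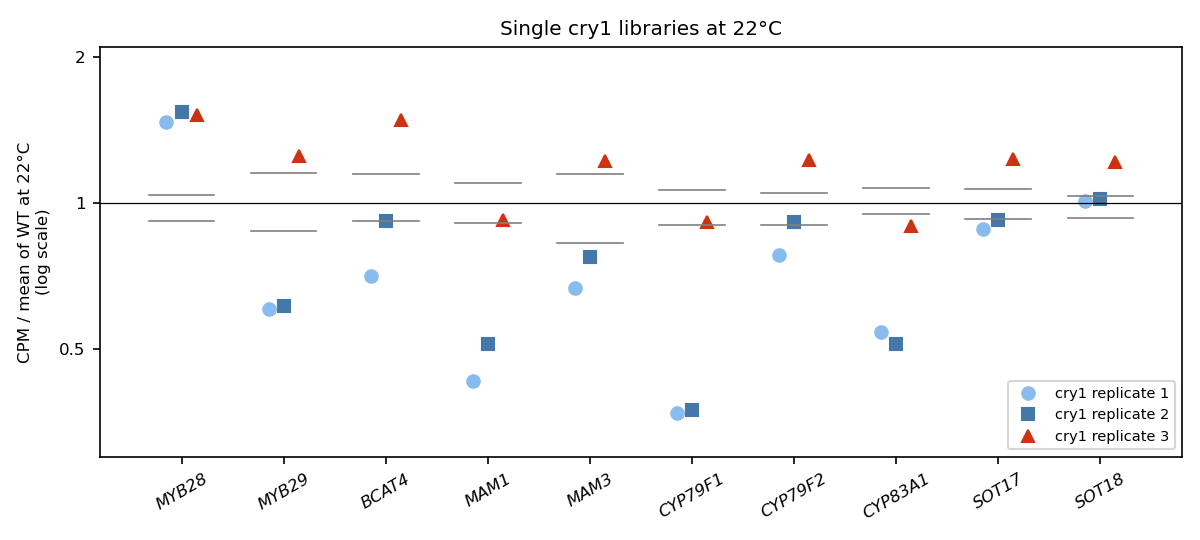
Level of each member in the single *cry1* libraries at 22°C over the WT mean at 22°C (log axis; grey bars give the lowest and highest WT library). Replicate 3 (triangles) lies above replicates 1 and 2 for every member but *MYB28*, for which the 3 *cry1* libraries lie together at 1.47 to 1.54 times the WT mean.

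The third question was whether the genotypes differed after heat. At 44°C 6 members were called lower in *cry1* and 0 higher, against 14.1% of all tested genes lower and 7.17% higher. The 6 were all 3 elongation genes, *CYP83A1* and both sulfotransferase genes, and for each of them every *cry1* library lay below every WT library (20.8% of tested genes were lower without overlap). *BCAT4* stood at 3.86 to 4.46 CPM in *cry1* and 11.1 to 14.8 in WT, which gave a log2 difference of -1.66 ± 0.32 (SE; adjusted p = 0.0043 in edgeR). *MAM1* stood at 7.79 to 11.2 and 22.6 to 30.9 CPM, at -1.59 ± 0.33 (adjusted p = 0.0087), and *MAM3* at 13.7 to 19.7 and 37.6 to 51.0 CPM, at -1.46 ± 0.26 (adjusted p = 0.0034). These elongation genes were thus 2.74- to 3.17-fold lower in heated *cry1* than in heated WT. *CYP83A1* stood at 0.591 to 1.49 CPM in *cry1* and 3.68 to 5.50 in WT, at -2.06 ± 0.49 (adjusted p = 0.015). Without WT replicate 1 or *cry1* replicate 2 at 44°C it was not called (adjusted p = 0.057 and 0.054).

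Of the sulfotransferase genes, *SOT17* stood at 0.433 to 0.722 CPM in heated *cry1* and 1.17 to 2.34 in heated WT, which gave a log2 difference of -1.53 ± 0.34 (SE; adjusted p = 0.0013 in edgeR). *SOT18* differed less, with 6.11 to 8.61 against 9.30 to 12.7 CPM, at -0.57 ± 0.15 (adjusted p = 0.0051), and without WT replicate 2 at 44°C the call was lost (adjusted p = 0.062). *MYB28* stood at 0.524 to 1.05 CPM in *cry1* and 1.00 to 1.80 in WT, groups that touched, and its log2 fold change of -0.82 ± 0.30 was not called (adjusted p = 0.054). It was called without WT replicate 2 or *cry1* replicate 3 at 44°C (adjusted p = 0.031 and 0.021), and with limma on log2(FPKM + 0.1) (adjusted p = 0.027). *MYB29*, *CYP79F1* and *CYP79F2* were at or near 0 in both genotypes at 44°C, so that no difference between them was detectable at this depth. Over the other 7 members the median log2 fold change was -1.53, against -0.08 for the median gene.

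The heat response itself was then compared between the genotypes as an interaction term. The term was called below 0, a more negative heat response in *cry1*, for 5 members, against 19.4% of all tested genes, and above 0 for 0, against 3.18%. For 4 of the 5 the transcript was lower on heating in both genotypes, whereas *MAM3* was not called in WT. The difference, heat response in *cry1* minus that in WT on the log2 scale, was -1.72 ± 0.40 for *BCAT4* (adjusted p = 0.012 in edgeR) and -1.55 ± 0.37 for *SOT17* (adjusted p = 0.0027). It was -1.41 ± 0.31 for *MYB28* (adjusted p = 0.0016), which started higher and ended with the lower mean in *cry1*. It was -1.28 ± 0.35 for *MAM3* (adjusted p = 0.031) and -0.68 ± 0.18 for *SOT18* (adjusted p = 0.0078). *MAM1*, at -0.91 ± 0.43 (adjusted p = 0.18), and *CYP83A1*, at -1.44 ± 0.54 (adjusted p = 0.092), did not pass. The median gene moved by -0.33 in this comparison. Under TMM and median-ratio scaling *BCAT4*, *SOT17* and *MYB28* passed and *MAM3* (adjusted p = 0.13 in both) and *SOT18* (0.35 in both) did not. In those fits 4.26 and 4.34% of all tested genes passed below 0. The call for *MAM3* was also lost without any of 6 single libraries, namely WT replicates 1 and 3 at 22°C, WT replicates 1 and 2 at 44°C and *cry1* replicates 2 and 3 at 44°C (adjusted p = 0.061 to 0.072). *CYP83A1* passed without *cry1* replicate 2 or 3 at 22°C (adjusted p = 0.040 and 0.0022).

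The other genes of the aliphatic branch, from a list of 17 of which 15 were tested, were mostly lower on heating too. Of all tested genes, 53.1% were lower and 13.3% higher on heating in WT, and 63.9% and 9.84% in *cry1*. In WT 14 were lower and 1 higher, with a median of -3.93. In *cry1* 14 were lower and 1 higher, with a median of -4.43. Under median-ratio scaling 12 were lower and 2 higher in each genotype. The shares of all tested genes under that scaling were 31% lower and 29.3% higher in WT, and 31.9% and 30% in *cry1*. The side-chain oxidase gene *GS-OX3* had a log2 difference of -5.29 ± 0.31 in WT (adjusted p = 7.5e-15 in edgeR). *MYB76*, the close relative of *MYB29* with a minor part in the branch, had only 0.518 ± 0.417 CPM in WT at 22°C and no count at 44°C. The higher gene was *GS-OX4*, of the *GS-OX* family, with 70.1 ± 18.2 CPM at 22°C and 142 ± 19.2 at 44°C in WT (1.01 ± 0.22, adjusted p = 0.0024) and 109 ± 20.2 and 258 ± 36.2 CPM in *cry1* (1.24 ± 0.21, adjusted p = 0.00045). In heated *cry1* 8 of the 15 were lower than in heated WT and 1, *GS-OX4*, was higher, against 14.1% and 7.17% of all tested genes. *GSTF11*, a glutathione transferase gene linked to the branch, had 0.334 ± 0.117 CPM in heated WT and no count in heated *cry1*. *IPMI_SSU2*, a small subunit of the isomerase that acts after the MAM enzymes, was lower in *cry1* at both temperatures, at -1.13 ± 0.19 at 22°C and -2.35 ± 0.34 at 44°C (adjusted p = 6.7e-05 and 9.1e-06).

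With the filter passed in at least 1 group, the steps around the branch had smaller median changes than the members, a difference that was not tested. For the indolic branch this order depends on the filter. With the filter applied in each group, the members had medians of -2.69 in WT and -4.11 in *cry1*. These are no larger in size than the indolic medians given below. Beside the counts below, 53.1% of all tested genes were lower on heating in WT and 63.9% in *cry1*. Under median-ratio scaling 31% and 31.9% were lower, and 29.3% and 30% higher. In heated *cry1* 14.1% were lower than in heated WT. The 3 genes of the core shared with the indolic branch were lower in both genotypes, with medians of -1.81 in WT and -2.72 in *cry1*, and in heated *cry1* all 3 were lower than in heated WT (median -0.91); under median-ratio scaling 2 of the 3 were lower in heated WT against WT at 22°C. Of the 7 genes of the indolic branch, 6 were lower in WT and 7 in *cry1*, with medians of -3.31 and -4.16 (5 and 6 under median-ratio scaling, which put 1, *MYB51*, higher in WT at 0.45). At 22°C 4 of these 7 were higher in *cry1* and 0 lower, against 25.7% of all tested genes higher and 6.31% lower. Among the 4 were the regulators *MYB51* (0.92 ± 0.18, adjusted p = 0.00026 in edgeR) and *MYB34* (0.51 ± 0.11, adjusted p = 0.0016), beside *MYB28* in the aliphatic branch. That count was 2 without *cry1* replicate 3 and 1 under median-ratio scaling, against 19.5% and 5.74% of all tested genes higher in those fits. All 8 genes of sulfate assimilation and activation, which supply the sulfate donor of the sulfotransferases, were lower on heating in both genotypes, with medians of -2.38 and -2.69, except that *SIR* was higher in WT under median-ratio scaling. *APK2*, a kinase that makes this donor, had -2.73 ± 0.21 in WT and -4.58 ± 0.24 in *cry1*, and stood 1.91 ± 0.29 log2 units lower in heated *cry1* than in heated WT (adjusted p = 0.00067).

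The relatives of the elongation genes in leucine synthesis, an ancestral pathway with the same chemistry, behaved otherwise. The shares of all tested genes given above for library totals apply to these counts too. Under median-ratio scaling 29.3% of all tested genes were higher on heating in WT. In *cry1* 30% were higher and 31.9% lower under that scaling. In WT 2 of 5 were higher and 3 lower at 44°C, with a median of -0.44, and under median-ratio scaling all 5 were higher. *IPMS1*, whose coding sequence is 67.3% identical to that of *MAM1*, had 47.0 ± 3.89 CPM at 22°C and 129 ± 8.72 at 44°C in WT (1.46 ± 0.085, adjusted p = 5.4e-15 in edgeR). *IPMDH2* rose by 0.71 ± 0.10 (adjusted p = 3.1e-07). In *cry1* 1 of the 5, *IPMS1*, was higher and 3 were lower (3 higher and 1 lower under median-ratio scaling), and all 5 were lower in heated *cry1* than in heated WT, with a median of -0.62. The bHLH factors that act with the MYB factors split: *MYC4* was lower in WT, at -2.99 ± 0.13, as was *MYC3*, at -1.08 ± 0.086 (adjusted p = 8.1e-18 and 5.5e-12), whereas *MYC2* was not called (-0.11 ± 0.32, adjusted p = 0.80). In heated *cry1* against heated WT 0 of the 3 were called (2 were higher under median-ratio scaling, against 11.5% of all tested genes).

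Transport and breakdown genes were lower in 6 of 7 cases and higher in 1 on heating in each genotype (5 lower and 1 higher in WT and 5 lower and 2 higher in *cry1* under median-ratio scaling). On library totals 53.1% of all tested genes were lower on heating in WT and 63.9% in *cry1*. Under median-ratio scaling 31% and 31.9% were lower, and 29.3% and 30% higher. The call of *TGG2* in *cry1*, lower on library totals, turned to higher under that scaling (0.68, adjusted p = 0.0034 in edgeR). *GTR1*, a glucosinolate importer gene, had the largest fall, from 90.7 ± 5.47 to 1.25 ± 0.70 CPM in WT. The higher gene was *NSP5*, of nitrile formation, at 0.52 ± 0.10 in WT and 0.98 ± 0.10 in *cry1* (adjusted p = 2.6e-05 and 5.8e-10 in edgeR). At 22°C 4 of the 7 were lower in *cry1*, led by the myrosinase genes *TGG2* (-1.59 ± 0.17) and *TGG1* (-0.97 ± 0.094, adjusted p = 6.5e-05 and 2e-08), and 2 were higher, led by *GTR2* (0.79 ± 0.076, adjusted p = 1.7e-08). In that comparison 6.31% of all tested genes were lower and 25.7% higher. Of 8 sulfur deficiency markers, 6 were lower and 0 higher in WT on heating (6 and 1, *LSU2*, under median-ratio scaling), and 5 were lower in *cry1* at 22°C, where *SDI1*, a repressor of this pathway in *Arabidopsis*, was lower by -2.04 ± 0.24 (adjusted p = 1.4e-05).

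**Figure D4:**
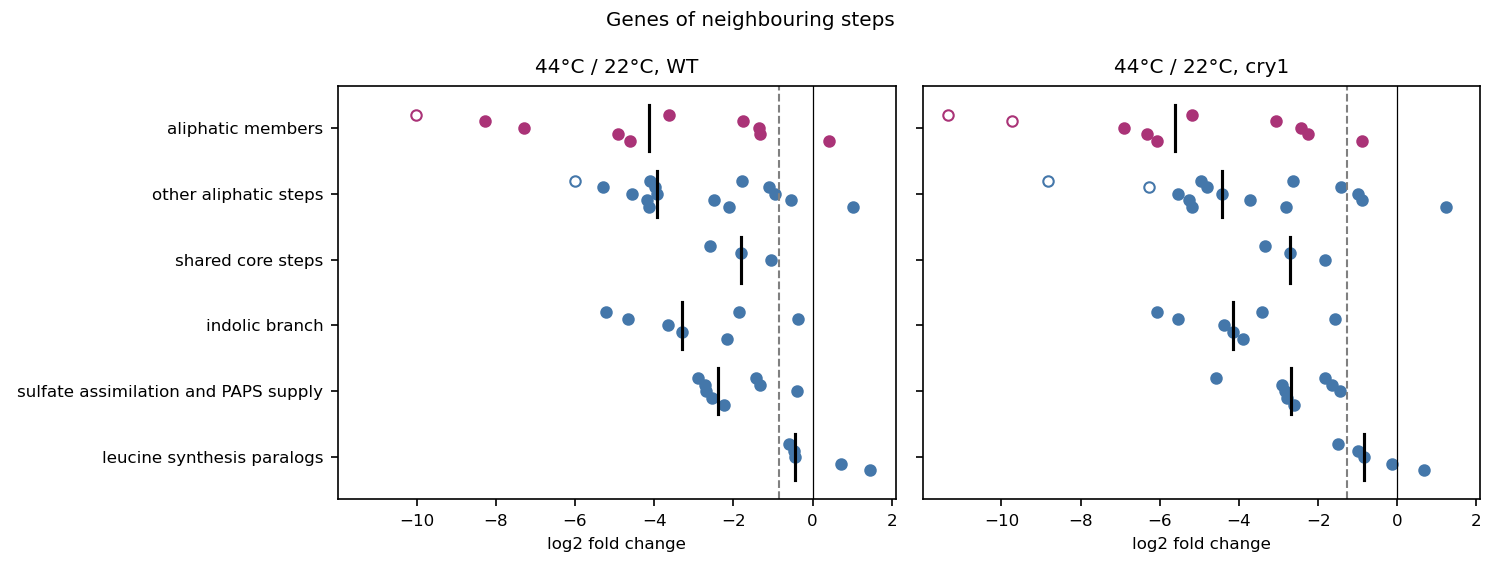
Log2 fold change on heating in WT (left) and *cry1* (right) of the members and 5 neighbouring gene groups (points), with each group's median (black bar), 0 (solid line) and the median gene (dashed line). Open points are genes without counts at 44°C, whose fitted value depends on the prior count. The 10 members have medians of -4.12 and -5.62. The leucine synthesis group has medians of -0.44 and -0.84, or 0.37 and 0.35 under median-ratio scaling, where 1 of its genes is still lower in *cry1*.

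Across the 12 libraries, which share the 4 groups and so mostly trace the group means, the members were alike in pattern except *MAM3*. On log2(CPM + 0.5), the Pearson correlation of a member with the mean of the other members was 0.922 to 0.992 for 9 of them and 0.39 for *MAM3*. Among 14302 genes outside the lists with a mean of at least 5 CPM, the patterns most like the mean of the members were those of *AGD2* (r = 0.996), *AK3* (0.995), *GSA2* (0.995), *OVA1* (0.994) and *LIN2* (0.993). *AK3*, an aspartate kinase gene, stood at 26.6 and 2.91 CPM in WT and at 27.8 and 0.675 CPM in *cry1*, at 22°C and 44°C.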

How the data were processed

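RNA-seq was performed on *Arabidopsis* seedlings of 4 groups with 3 replicates each, and groups and replicate numbers were taken from the sample labels. The labels give 7 days of continuous light and the paper fewer, and the labels give polyA RNA and a stranded mRNA kit while the paper gives rRNA depletion. Per the paper, reads were trimmed with Trimmomatic and quantified with RSEM on TAIR10; the submitters' processing notes also name TopHat2 2.0.11. No source used here says whether the counting used strand. Expected counts for each gene were deposited by the authors as 12 columns, all of them mapped (0 left over); 8.50 to 11.6 percent of the values above 0 were not whole.

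Expected counts were rounded and fitted with edgeR 4.0.16 under R 4.3.3 (quasi-likelihood with robust estimation, 1 term per group, scaling to library totals, common biological coefficient of variation 0.105). The 25575 genes tested had a mean FPKM whose log2 exceeded -5 in at least 1 group. FPKM were rebuilt with the longest transcript in the TAIR10.1 annotation, which held all 26891 identifiers. A standard error is the log2 fold change over the square root of its F value. Folds against groups without counts use a floor of 3 counts per library. The fit was also run on simulated data in which only a small set of genes was changed. That simulation held no broad shift between groups, so it cannot bear on the choice of scaling. Replicates differed by more than sampling noise (chi-square per gene 4.65 to 13.8), so none was merged.

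The members and the gene lists were chosen with earlier results of these data known. All members are named in every comparison, and from each list at most the 2 highest and the 2 lowest called genes. *NSP5*, *GS-OX4* and *IPMS1* recur under this rule; *MYC2* and *SIR* were named after their values were seen. The 5 most similar genes are those with the highest correlation with the mean of the members. Alternatives were TMM and median-ratio scaling, DESeq2 1.42.0, limma 3.58.1 on log2(FPKM + 0.1) and log2(FPKM + 1), other filters, the compared groups alone, the replicate number as a block, and each library left out in turn.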

Additional observations from a re-analysis of the deposited data

Results flagged for a closer look

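The heat response differed between the genotypes, by the interaction test itself (edgeR, adjusted over 25575 genes), for 5 members, each with a more negative response in *cry1*. *MAM3* was not called on heating in WT, and the other 4 were lower on heating in both genotypes. The difference on the log2 scale was -1.72 for *BCAT4* (adjusted p = 0.012), -1.28 for *MAM3* (adjusted p = 0.031), -1.55 for *SOT17* (adjusted p = 0.0027), -0.68 for *SOT18* (adjusted p = 0.0078) and -1.41 for *MYB28* (adjusted p = 0.0016). The median gene moved by -0.33 in the same comparison, and 19.4% of tested genes passed in this direction. Groups of 3 libraries are too small for a test of single outlying libraries.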

How the results depend on the processing

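Of 998 values of single members under an alternative, 919 kept their direction and side of the threshold. With the same sign 20 lost and 35 gained a call, and 24 changed sign. None of these 24 was called under its alternative. Among them was *MAM3* on heating in *cry1* under TMM, median-ratio scaling and DESeq2, which was called lower on library totals. The count of members higher on heating in WT (0) was 1, *MAM3*, under TMM, median-ratio scaling, DESeq2 and the compared groups alone. The shares of all tested genes higher in those fits were 28.8, 29.3, 29.1 and 13.6%, in this order. With a library left out that count of members was 0 to 1. The count higher in *cry1* at 22°C (1) was 0 with limma on log2(FPKM + 0.1), against 20.3% of all tested genes. The count lower in *cry1* at 22°C (0) was 2 under TMM, median-ratio scaling, DESeq2 and limma on log2(FPKM + 0.1). The shares of all tested genes lower in those fits were 10.6, 11.2, 11.6 and 5.43%, in this order. The count was 3 with limma on log2(FPKM + 1), against 6.54%. It was 1 with either stricter filter, against 7.35 and 8.57%. With a library left out that count of members was 0 to 5. The count with a more negative heat response in *cry1* (5, against 19.4% of all tested genes) was 3 under TMM and median-ratio scaling, against 4.26 and 4.34%. The cause was not tested.

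Changes of sign under TMM, median-ratio scaling and DESeq2, in this order, were those of *MAM3* on heating in *cry1* (0.29, 0.32, 0.31) and, at 22°C between genotypes, of *BCAT4* (-0.18, -0.20, -0.20), *SOT17* (-0.21, -0.23, -0.23) and *SOT18* (-0.12, -0.14, -0.14). *BCAT4* was -0.0079 and -0.0055 with limma at pseudocounts of 0.1 and 1. With a library left out, values at 22°C ranged from -0.30 to 0.27 for *BCAT4*, -0.24 to 0.10 for *CYP79F2* and -0.14 to 0.11 for *SOT17*. *CYP79F2*, near 0 at 44°C, ranged from -0.57 to 1.86 between genotypes there and from -0.53 to 1.90 in the interaction.

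Library totals put more genes lower: 20.1% of called genes were higher on heating in WT and 13.3% in *cry1*, against 48.6 and 48.5% under median-ratio scaling. Between genotypes 80.3% were higher at 22°C and 33.7% at 44°C, against 33.8 and 56.2%, and 14.1 against 68.4% in the interaction. The replicate numbers do not pair the samples (correlations of same-numbered deviations -0.175 to 0.327, 4 of 12 libraries closest to their own number). With the replicate block 1 member, *CYP79F1*, was lower in *cry1* at 22°C (-0.97, adjusted p = 0.032), *MAM3* was not called in the interaction (-1.28, adjusted p = 0.062), and no other call of a member changed.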
